A study of Mus musculus with 8 samples.

Results

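Chemokine receptor transcripts of tumor-infiltrating CD4+ T cells were measured by bulk RNA-Seq in CCR8+ Tconv cells and compared with CCR8- Tconv cells. The 9 genes examined were Ccr8, Ccr1, Ccr2, Ccr4, Ccr6, Cxcr3, Cxcr4, Cxcr5 and Cxcr6, found by their symbols. All 9 were present among the 11233 rows of the deposited table, and all 9 had a mean of at least 10 normalized counts, so that they were among the 11032 rows tested.

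Both populations came from mice that carried the Foxp3-EGFP-DTR allele, in which the Foxp3 gene drives EGFP together with the human diphtheria toxin receptor. All mice bore subcutaneous B16-F10 tumors, a transplantable mouse melanoma, and all received diphtheria toxin (DTx), which kills Foxp3+ Treg cells in this strain, as 1 µg every other day into the peritoneum. The animals were 8 to 14 weeks old and of both sexes. EGFP-negative CD4+ T cells, called Tconv cells, were sorted into CCR8+ and CCR8- fractions, with 4 libraries of each. The methods, and the description of these libraries in the study, place the sort at day 16 after implantation, whereas the title of a table of the study gives day 18. No group without DTx is part of these libraries, so every comparison is between fractions of Treg cell-depleted tumors. All replicates came from a single day of isolation, but the sources do not state whether libraries of the 2 fractions with the same number came from the same mouse.

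Chemokine receptors are G protein-coupled receptors that sit in the plasma membrane and guide cells along gradients of secreted chemokines. Ligand binding activates Gi proteins and, through them, small GTPases and integrins, after which receptor kinases and arrestins withdraw the receptor from the surface. In T cells the set of receptors varies with differentiation: naive cells recirculate through lymphoid organs, whereas effector and tissue-resident cells carry receptors for inflammatory chemokines. CCR8 binds CCL1 and, in mice, CCL8, and is known as a receptor of activated Treg cells in tumors.

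A library held between 12067780 and 17802628 recovered reads, and between 8569 and 10882 genes were detected in each. A normalized count is a read count divided by a factor of its library, and 3 reads, the upper limit that a count of 0 allows, were worth 2.21 to 3.42 normalized counts, which covers counting error only. CCR8- replicate 1 stood apart, with 242 genes at 0 that reached 100 or more normalized counts in each of the remaining libraries. CCR8+ replicates 1 and 3 had 44 and 36 such genes and the other libraries 0. All 12 T cell markers examined were present in every library. Their summed level was 113570 to 147770 in CCR8+ and 111610 to 149650 in CCR8- libraries. Apart from Cd4 they are not particular to CD4+ T cells. Cd4 had 7610.6 to 9191.9 normalized counts in CCR8+ and 6364.5 to 9822.6 in CCR8- libraries. Cd8a was also above 0 in every library, at 130.01 to 480.51 and 90.621 to 1984.1, as was Cd8b1, at 347.83 to 928.4 and 668.41 to 1820.5. In bulk RNA, fewer cells with a transcript and less of that transcript per cell cannot be told apart. The p-values below measure the spread between these libraries.

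The receptor transcripts separated into 3 patterns. Ccr8 and Ccr1 were above every CCR8- library in every CCR8+ library, Cxcr4 and Cxcr3 were below every CCR8- library in every CCR8+ library, and the other 5 receptors overlapped. Thus 4 of 9 receptors did not overlap between the fractions, compared with 4.4% of all genes tested. The receptors were chosen with earlier results of these data known, so these shares are a description and not a test. Since the cells were sorted on CCR8 protein, Ccr8 serves as a check of the sort and not as a finding, which leaves 3 of 8 receptors. Of all genes tested 2.37% did not overlap and were higher in CCR8+ libraries, and 2.03% were lower. On the log2(normalized count + 1) scale the median log2 fold change, CCR8+ over CCR8-, was -1.03 over the 9 receptors and 0.04 over all genes tested. With limma, 0 of 9 receptors passed an adjusted p of 0.05 together with a fold change above 3, as was true of 0 of all 11032 genes (0% called), and the smallest adjusted p of any gene was 0.788. At an unadjusted p under 0.05, limma gave 2 receptors higher (Ccr8 and Ccr1) and 1 lower (Cxcr4), compared with 2.8% and 2.29% of all genes. With the recovered reads, edgeR called 0 receptors and 0 genes, and DESeq2 called 0 receptors and 23 of 10744 genes (0.214%). With the replicate number added as a block, limma called 0 receptors and 0.00906% of all genes, and DESeq2 called 1 receptor, Ccr8, and 0.74% of all genes. The exact permutation test over the 70 assignments of the labels is two-sided, and the smallest p it can give is 0.0286. Any gene whose groups do not overlap gets this p, so for such genes it restates the separation and adds no support. That holds also for genes of other lists, some of which were named because their groups did not overlap.

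**Figure D1:**
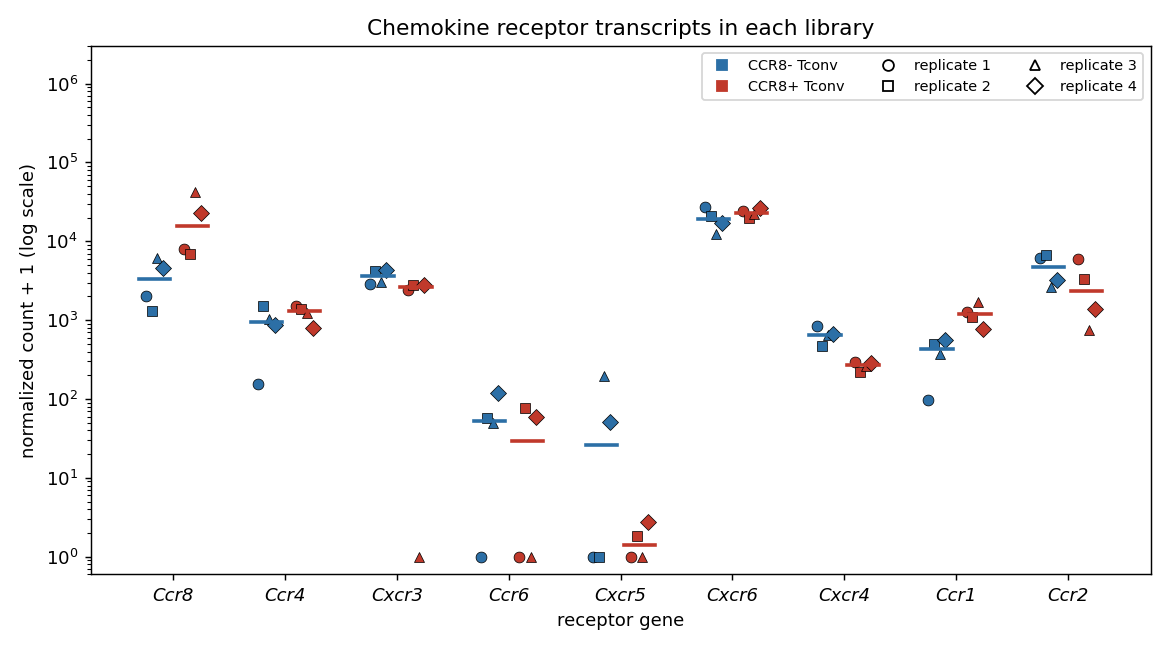
Normalized count + 1 (log scale) of the 9 receptor genes in each of 4 CCR8- (blue) and 4 CCR8+ (red) Tconv libraries, with the replicate number as the symbol and the median of each group as a bar. Ccr8 and Ccr1 lie higher and Cxcr4 lower in all CCR8+ libraries, and Cxcr3 is at 0 in CCR8+ replicate 3.

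The results turn mainly on Ccr8, Ccr1 and Cxcr4, for which the 250 bases upstream of the start site in the RefSeq annotation of GRCm38.p6 are shown here as the sequence context of the genes, read 5′ to 3′ on the strand of the gene. Capitals mark every match, on either strand, to 6 short motifs searched in the 250 upstream bases only: TGANTCA for AP-1, AGATAA for GATA factors, TGGAAA for NFAT, CACCC for KLF factors, TGTGGT for RUNX factors and ACGTG for HIF.
Ccr8, chr9:120091883-120092132, plus strand: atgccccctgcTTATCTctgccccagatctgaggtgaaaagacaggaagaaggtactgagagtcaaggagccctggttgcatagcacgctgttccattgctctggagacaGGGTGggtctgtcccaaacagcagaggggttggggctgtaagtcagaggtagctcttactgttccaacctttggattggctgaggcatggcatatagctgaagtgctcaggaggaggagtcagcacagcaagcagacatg
Ccr1, chr9:123968693-123968942, minus strand: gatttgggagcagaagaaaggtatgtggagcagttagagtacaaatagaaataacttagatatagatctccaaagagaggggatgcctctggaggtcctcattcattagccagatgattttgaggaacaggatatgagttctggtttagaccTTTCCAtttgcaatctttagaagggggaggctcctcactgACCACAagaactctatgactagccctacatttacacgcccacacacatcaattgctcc
Cxcr4, chr1:128592300-128592549, minus strand: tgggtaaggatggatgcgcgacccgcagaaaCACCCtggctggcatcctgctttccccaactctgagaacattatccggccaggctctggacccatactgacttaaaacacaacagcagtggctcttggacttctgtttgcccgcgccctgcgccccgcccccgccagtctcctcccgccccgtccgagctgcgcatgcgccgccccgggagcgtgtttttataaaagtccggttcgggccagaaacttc
Upstream of Ccr8 there was 1 GATA match, 239 bases before the start site, and 1 KLF match. Ccr1 had 1 NFAT and 1 RUNX match and Cxcr4 1 KLF match. Among 32851 promoters of the same length, 9.99% held the GATA letters, 52% those of KLF, 18.6% those of NFAT, 14% those of RUNX, 16.6% those of HIF and 6.75% those of AP-1, so the matches are a description of these windows. Promoters were in the reference for 8 of the 9 receptors, and no pair of Ccr8, Ccr1 and Cxcr4 shared a motif other than KLF.

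The sort marker transcript was present in both fractions. Ccr8 (chromosome 9, 120092114 to 120094906, plus strand, GRCm38) had 7975.1, 6970.2, 42508 and 22965 normalized counts in CCR8+ replicates 1 to 4 and 2039, 1292.9, 6213.9 and 4637.1 in CCR8- replicates 1 to 4. Every CCR8+ library was above every CCR8- library, but CCR8- replicate 3 came close to CCR8+ replicate 2, and CCR8+ replicates 3 and 4 stood well above the other 6 libraries. The log2 fold change was 2.37 (standard error 0.62, 95% interval 1.0 to 3.73), with a limma adjusted p of 0.829. Within the same-numbered libraries the difference was 1.97, 2.43, 2.77 and 2.31 on the log2 scale, a narrower range than that of the levels themselves. The fractions no longer separated completely when each library was scaled to a total of 1000000, where the lowest CCR8+ library had 532.6 and the highest CCR8- library 541.8, or under quantile normalization.

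Ccr1 was higher in CCR8+ cells. CCR1 binds the inflammatory chemokines CCL3 and CCL5 and, in mice, CCL6 and CCL9, and is best known from monocytes and other myeloid cells. Ccr1 (chromosome 9, 123962124 to 123968692, minus strand) had 1267.8, 1092.4, 1679.9 and 762.54 normalized counts in CCR8+ replicates 1 to 4. In CCR8- replicates 1 to 4 it had 95.546, 495.4, 366.66 and 556.5. The lowest CCR8+ library thus lay above the highest CCR8- library, and CCR8- replicate 1, the library with the most genes at 0, was the lowest of all. The mean was 1200.6 ± 382 in CCR8+ and 378.5 ± 205 in CCR8- cells (SD, n = 4), and the ratio of the medians was 2.74. The log2 fold change of Ccr1 was 1.88 (standard error 0.53, 95% interval 0.71 to 3.04; exact permutation p = 0.0286), with an adjusted p of 0.829 by limma and 0.229 by DESeq2, and between 0.0967 and 0.999 over the alternative settings. Without CCR8- replicate 1 and CCR8+ replicate 3 together it was 1.13. The groups of Ccr1 stayed apart under all 5 scalings of the libraries. Its differences within same-numbered libraries, 3.72, 1.14, 2.19 and 0.45 on the log2 scale, were all above 0, which held for 8.44% of all genes tested.

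The gate that the methods give for Tconv cells is TCRβ+ CD4+ EGFP-, and how completely it removed myeloid cells was not tested. Because myeloid cells carry CCR1, the summed level of 12 macrophage and monocyte markers was set beside that of Ccr1. That sum was 27176, 18629, 3201.2 and 25718 normalized counts in CCR8+ replicates 1 to 4 and 88.651, 4298.3, 1561.4 and 83499 in CCR8- replicates 1 to 4, and each of the 12 markers was above 0 in some library. Among the CCR8- libraries Ccr1 and the marker sum had the same order (replicates 1, 3, 2 and 4 from low to high). Among the CCR8+ libraries they did not, since CCR8+ replicate 3 had the most Ccr1 and the lowest sum, and CCR8- replicate 4, with the highest sum of all, had less Ccr1 than any CCR8+ library. The median log2 fold change of the markers was 2.11, with 0 of 12 not overlapping, and their part in the level of Ccr1 was not tested.

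Cxcr4 was lower in CCR8+ cells, with little spread. CXCR4 is the receptor for CXCL12, which retains lymphocytes and hematopoietic cells in bone marrow and lymphoid niches. Cxcr4 (chromosome 1, 128588199 to 128592293, minus strand) had 289.65, 218.32, 257.74 and 286.39 normalized counts in CCR8+ replicates 1 to 4. It had 848.1, 475.55, 650.87 and 662.12 in CCR8- replicates 1 to 4. The highest CCR8+ library was well below the lowest CCR8- library, and the CCR8+ libraries differed little from each other. Its mean was 263 ± 33.1 in CCR8+ and 659.2 ± 152 in CCR8- cells (SD, n = 4), and the ratio of medians, CCR8- over CCR8+, was 2.41. The log2 fold change of Cxcr4 was -1.30 (standard error 0.36, 95% interval -2.09 to -0.52; exact permutation p = 0.0286), with an adjusted p of 0.829 by limma and 0.0924 by DESeq2, and between 0.0472 and 0.999 over the alternative settings. The same-numbered libraries differed by -1.55, -1.12, -1.33 and -1.21 on the log2 scale. Over all alternative settings the value stayed between -1.45 and -1.16, and the groups did not overlap under any of the 5 scalings.

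Cxcr3 was also lower in CCR8+ cells, but the size of its difference rested on 1 library. CXCR3 binds the interferon-induced chemokines CXCL9 and CXCL10 and is a receptor of Th1 and CD8+ effector T cells. Cxcr3 (chromosome X, 101731535 to 101734269, minus strand) had 2419.9, 2786.1, 0 and 2825.6 normalized counts in CCR8+ replicates 1 to 4 and 2884.1, 4167.5, 3059.6 and 4337.3 in CCR8- replicates 1 to 4. The highest CCR8+ library lay just under the lowest CCR8- library, and CCR8+ replicate 3 held no read of the gene. Cxcr3 was the 1 gene at 0 in that library that reached 2000 or more in each of the remaining libraries. The log2 fold change was -3.26 (standard error 2.10, 95% interval -7.87 to 1.36; exact permutation p = 0.0286), and -0.41 without CCR8+ replicate 3. On the recovered reads DESeq2 gave a log2 fold change of -0.85, with an adjusted p of 0.999. Within same-numbered libraries Cxcr3 differed by -0.25, -0.58, -11.6 and -0.62 on the log2 scale, lower in 4 of 4, as were 8.1% of all genes tested. The groups overlapped under quantile normalization. The summed level of 8 CD8+ T and NK cell markers was also lower in CCR8+ libraries, at 2356.4 to 2922.4 normalized counts compared with 3970.1 to 8917.6 in CCR8- libraries. Of these markers 7 were tested singly, and 0 had groups that did not overlap. The part of CD8+ T and NK cells in the level of Cxcr3 was not tested.

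**Figure D2:**
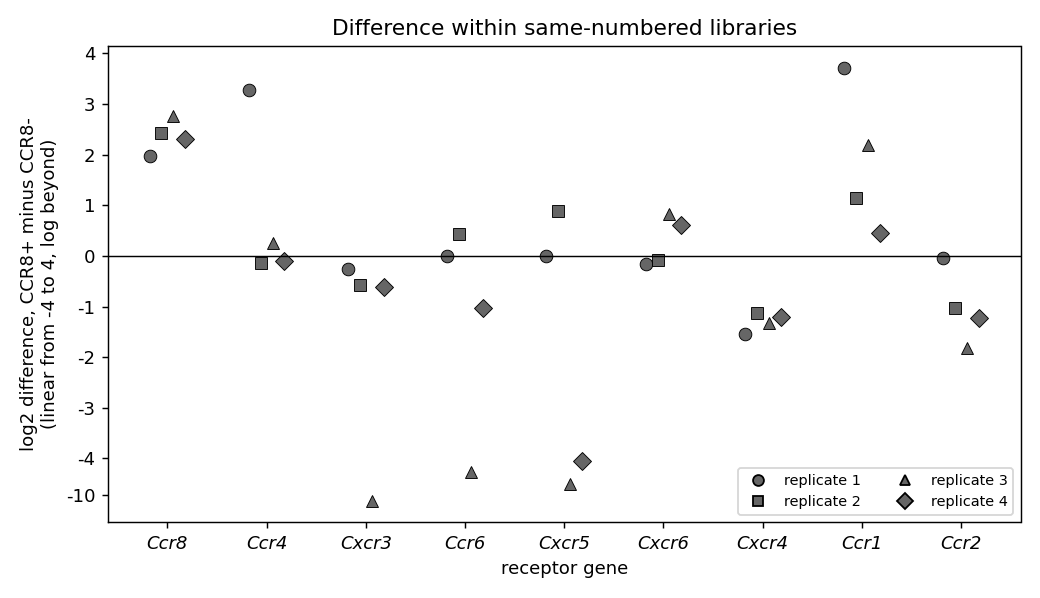
Difference in log2(normalized count + 1), CCR8+ minus CCR8-, between libraries of the same replicate number, for each receptor gene, with the replicate number as the symbol. The axis is linear near 0 and logarithmic beyond. Ccr8 and Ccr1 lie above 0 and Ccr2, Cxcr3 and Cxcr4 below 0 in all 4 pairs, and the Cxcr3 point of replicate 3 is at -11.6.

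Of the receptors that overlapped between the fractions, Ccr2 had the most one-sided difference. CCR2 binds CCL2, CCL7 and CCL12 and is carried by inflammatory monocytes and by effector and memory T cells. Ccr2 (chromosome 9, 124101950 to 124113557, plus strand) had 5916.2, 3289, 756.11 and 1379.7 normalized counts in CCR8+ replicates 1 to 4 and 6093.3, 6717.3, 2662.2 and 3245.9 in CCR8- replicates 1 to 4. CCR8+ replicates 1 and 2 fell within the range of the CCR8- libraries, and CCR8+ replicates 3 and 4 below it. The differences within same-numbered libraries were -0.043, -1.03, -1.81 and -1.23 on the log2 scale. The fitted log2 fold change of Ccr2 was -1.03 (standard error 0.57, 95% interval -2.27 to 0.21; exact permutation p = 0.229). Without CCR8- replicate 1 and CCR8+ replicate 3 it was -0.37. Ccr2 had 6093.3 normalized counts in CCR8- replicate 1, which had the lowest macrophage marker sum of its fraction, and 3245.9 in CCR8- replicate 4, which had the highest. Among CCR8+ libraries Ccr2 was highest in replicate 1, which had the highest sum, and lowest in replicate 3, which had the lowest sum, and the part of macrophages and monocytes in the level of Ccr2 was not tested. A share of 1.91% of the 50-base stretches of Ccr2 also occurred in another transcript, which limits how exactly its reads could be assigned.

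Ccr4 did not differ beyond its spread. CCR4 binds CCL17 and CCL22 and is a receptor of Th2 and Treg cells. Ccr4 (chromosome 9, 114490316 to 114504916, minus strand) had 1495.8, 1391.4, 1240.8 and 805.2 normalized counts in CCR8+ replicates 1 to 4 and 153.66, 1522.9, 1041.2 and 865.41 in CCR8- replicates 1 to 4. Apart from CCR8- replicate 1, the 2 fractions covered the same range. In log2 terms Ccr4 differed by 0.82 (standard error 0.60, 95% interval -0.49 to 2.14; exact permutation p = 0.371), and 0.10 without CCR8- replicate 1 and CCR8+ replicate 3, with 2 of 4 same-numbered pairs higher.

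Cxcr6 was abundant in every library. CXCR6, the receptor for the membrane-bound chemokine CXCL16, is carried by tissue-resident and tumor-infiltrating T cells. Cxcr6 (chromosome 9, 123806475 to 123811760, plus strand) had 24298, 19827, 22018 and 26253 normalized counts in CCR8+ replicates 1 to 4 and 27214, 21007, 12356 and 17268 in CCR8- replicates 1 to 4. The CCR8+ libraries lay within the range of the CCR8- libraries. For Cxcr6 the log2 fold change was 0.30 (standard error 0.28, 95% interval -0.31 to 0.91; exact permutation p = 0.314), an interval that leaves out a change of 2-fold in either direction.

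Ccr6 and Cxcr5 had the lowest median levels of the receptors and were at 0 in some libraries. CCR6 binds CCL20 and is a receptor of Th17 cells, and CXCR5 brings follicular helper T cells and B cells into follicles. Ccr6 (chromosome 17, 8236043 to 8257141, plus strand) had 0, 75.571, 0 and 57.452 normalized counts in CCR8+ replicates 1 to 4 and 0, 55.861, 48.245 and 118.11 in CCR8- replicates 1 to 4. Ccr6 thus had no read in 3 of 8 libraries, namely CCR8- replicate 1, CCR8+ replicate 1 and CCR8+ replicate 3. These libraries had 242, 44 and 36 genes at 0 that reached 100 or more normalized counts in each of the remaining libraries. The other libraries had 0 such genes, and the cause of the Ccr6 zeros was not tested. The fractions overlapped for Ccr6 (exact permutation p = 0.657), and its fitted difference of -1.55 on the log2 scale was smaller than its standard error of 2.17. Cxcr5 (chromosome 9, 44511787 to 44561877, minus strand) had 269 reads over the CCR8- libraries, most of them in replicate 3 at 197.37 normalized counts, and 3 reads over the CCR8+ libraries. CCR8- replicates 1 and 2 also held no Cxcr5 read, and the fractions overlapped (exact permutation p = 0.429). Its fitted log2 fold change ranged from -6.55 to -1.65 over the alternative settings and gives no size. The library with most Cxcr5 had a B cell marker sum of 364.91, CCR8+ replicate 1 had a sum of 447.45 with Cxcr5 at 0, and Ms4a1 was at 0 in every library. The gate included TCRβ, and the part of B cells in the level of Cxcr5 was not tested.

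**Figure D3:**
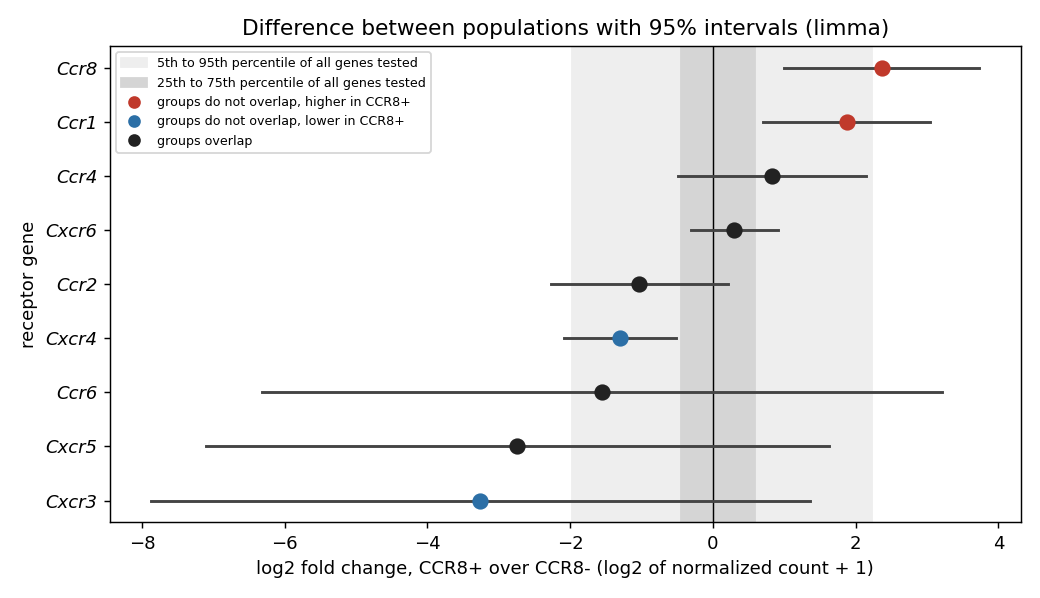
Log2 fold change, CCR8+ over CCR8-, of each receptor gene on the log2(normalized count + 1) scale, with 95% intervals from limma. The intervals of Ccr8 and Ccr1 lie above 0 and that of Cxcr4 below 0, and those of Cxcr3, Ccr6 and Cxcr5 are widest.

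To compare receptors with each other, levels were taken per kilobase of exon. In CCR8+ cells Ccr8 and Cxcr6 led, with medians of 13170 and 11990 normalized counts per kilobase. These neighbors could not be ordered, since Ccr8 was the higher in 2 of 4 libraries. Cxcr3 followed at 1504, and was below Cxcr6 in 4 of 4 libraries. The next 3 receptors, Ccr4 at 425.5, Ccr1 at 416.6 and Ccr2 at 345.3, changed places between libraries. Cxcr4 had 150.5 per kilobase, Ccr6 12.4 and Cxcr5 0.126. In CCR8- cells Cxcr6 led in 4 of 4 libraries, with a median of 9911 normalized counts per kilobase. Ccr8 came next at 2841 and Cxcr3 at 2088, with Ccr8 the higher in 3 of 4 libraries. Ccr2 had 690.8, Cxcr4 363.1, Ccr4 308.2 and Ccr1 152.1 per kilobase in CCR8- cells, and Ccr1 was the lower of Ccr4 and Ccr1 in 4 of 4 libraries. Cxcr4 thus stood above Ccr1 in the CCR8- order and below it in the CCR8+ order. Ccr6 at 22.4 and Cxcr5 at 7.50 came last in CCR8- cells as well.

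**Figure D4:**
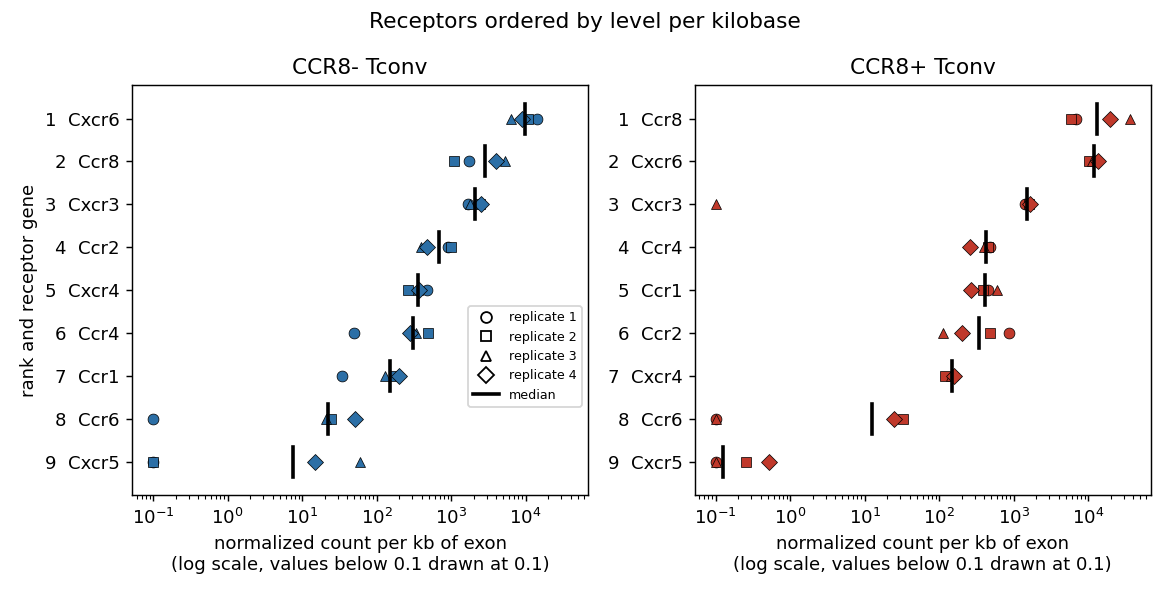
Receptor genes ordered by the median normalized count per kilobase of exon (log scale) in CCR8- (left) and CCR8+ (right) Tconv cells, with each library as a symbol and the median as a bar. Cxcr6 leads in CCR8- cells, in CCR8+ cells the range of Ccr8 extends both below and above that of Cxcr6, and Cxcr4 and Ccr1 exchange their places in the order.

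Over the 9 receptors together, Cxcr6 took a median of 59.9% of the summed level per kilobase in CCR8- cells and 45.7% in CCR8+ cells. The share of Ccr8 was 16.3% and 42.8%. The ratio of Cxcr6 to Ccr8 per kilobase was 8.12, 9.89, 1.21 and 2.27 in CCR8- replicates 1 to 4 and 1.85, 1.73, 0.315 and 0.696 in CCR8+ replicates 1 to 4. The ratios of the fractions overlapped, because CCR8- replicate 3 lay below CCR8+ replicates 1 and 2. Among the 10814 genes with an exon length, the median percentile of Ccr8 was 99.4 in CCR8+ and 96.2 in CCR8- libraries, and that of Cxcr6 was 99.5 and 99.4. The median percentile of Ccr1 was 82.6 and 66.7, and that of Cxcr4 was 66.8 and 81.8. The order depends on the length used: Ccr2 has 6760 exon bases of which 1119 are coding, and with coding length in place of exons Ccr8 had rank 2 in CCR8+ cells and rank 4 in CCR8- cells.

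The genes whose profile over the 8 libraries was most like that of Ccr8 were Penk, Ramp1, Il1r2, Mt1 and Jdp2. Likeness was measured as the root mean square difference between log2 profiles, each centered on its own mean, and was 0.392, 0.469, 0.498, 0.624 and 0.708 for these genes, compared with a median of 1.83 over 11031 genes. Penk, the precursor of enkephalins, had 10477, 7636.9, 61898 and 14274 normalized counts in CCR8+ replicates 1 to 4 and 3088, 1161.3, 6142 and 5187.9 in CCR8- replicates 1 to 4. As with Ccr8, CCR8+ replicate 3 was highest and CCR8- replicate 2 lowest. Il1r2, a decoy receptor of interleukin-1, ranged from 4888.6 to 36849 in CCR8+ and from 1080.6 to 3730.8 in CCR8- libraries. None of the other receptors was among these genes.

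Of 20 other chemoattractant receptors listed, 14 were in the table and 13 were tested. Limma called 0 of them. For 1 the groups did not overlap and it was higher (2.37% of all genes tested), and for 2 they did not overlap and were lower (2.03%). Their median log2 fold change was -0.46, and 5 were above and 8 below 0. Ltb4r1, the leukotriene B4 receptor, had 4233.4, 3751.7, 11094 and 2218.9 normalized counts in CCR8+ replicates 1 to 4 and 848.1, 1654.5, 2101.7 and 885.85 in CCR8- replicates 1 to 4. It was higher in each CCR8+ library, by 1.81 ± 0.46 on the log2 scale (standard error, exact permutation p = 0.0286). Its adjusted p was 0.829 by limma, 0.999 by edgeR and 0.0234 by DESeq2, so that only DESeq2 of these called it. Gpr183, an oxysterol receptor that positions lymphocytes within lymphoid organs, had 5009.4, 5491.5, 1314.9 and 2534.8 in CCR8+ and 9549.7, 11850, 8182.3 and 8006.8 in CCR8- replicates 1 to 4. Its log2 fold change was -1.58 (standard error 0.40; exact permutation p = 0.0286), and that of S1pr4, a sphingosine 1-phosphate receptor, was -1.26 with groups that did not overlap. S1pr1, the receptor for egress from lymphoid organs, had 3014.3, 2336, 536.01 and 712.93 in CCR8+ and 4510.4, 5528, 4327.1 and 2556.5 in CCR8- replicates 1 to 4 (log2 fold change -1.67, standard error 0.52; exact permutation p = 0.0571), with CCR8- replicate 4 inside the CCR8+ range. P2ry10, Ccrl2 and Ptger4 overlapped, with log2 fold changes between -0.46 and 0.27.

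The genes downstream of the receptors in signaling numbered 24, all of them tested. Limma called 0 of them, and the median log2 fold change was -0.09, which turned to 0.04 without CCR8- replicate 2 and to 0.0052 without CCR8+ replicate 4. The Gi subunit gene Gnai2 had 12318 ± 1643 normalized counts in CCR8+ and 11369 ± 2909 in CCR8- cells (SD, n = 4), and Rac2, a GTPase of leukocyte migration, 28179 ± 8470 and 30188 ± 8303. The groups did not overlap for 2 of the 24 genes, both lower in CCR8+ libraries, compared with 4.4% of all genes tested in either direction and 2.03% lower. Rasgrp2, an exchange factor that activates Rap1 toward integrins, had 594.43, 757.39, 126.59 and 390.85 in CCR8+ and 1553.4, 1657.4, 2048.2 and 1015.3 in CCR8- replicates 1 to 4, which gave -1.97 ± 0.51 on the log2 scale (standard error, exact permutation p = 0.0286). Dock2, the exchange factor for Rac in lymphocytes, had 783.57, 1568.5, 1943.3 and 1864.6 in CCR8+ and 4831.5, 2153.6, 2634.2 and 2084 in CCR8- replicates 1 to 4 (log2 fold change -0.92, standard error 0.35; exact permutation p = 0.0286), with the highest CCR8+ library close to the lowest CCR8- library.

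Of 14 genes that terminate receptor signals, 12 were tested, limma called 0 and 0 had groups that did not overlap. Their median log2 fold change was -0.26, and it came to -0.0094 without CCR8+ replicate 1. At an unadjusted limma p under 0.05, 1 of these genes was higher and 0 were lower, compared with 2.8% and 2.29% of all genes. Rgs1 and Rgs2, which speed the inactivation of G proteins, were the most abundant. Rgs1 had 35264 ± 15280 normalized counts in CCR8+ and 25377 ± 8451 in CCR8- cells (SD, n = 4), a difference within the spread (exact permutation p = 0.314). Grk2 and Arrb2, a receptor kinase and an arrestin, had log2 fold changes of -0.26 and -0.41 with overlapping groups. Of 19 ligands, 16 were tested, limma called 0 and 0 had groups that did not overlap. Their median log2 fold change was 1.14, with 13 of 16 above 0, but it was -0.099 without CCR8- replicate 1, between 0.36 and 2.25 without each of the other libraries in turn, and 0.21 with edgeR. Their summed level was highest in CCR8- replicate 4, at 77036 normalized counts, the library with the highest macrophage marker sum. Ccl5, a ligand of CCR1 made by T cells and other cells, was the 1 ligand with an unadjusted limma p under 0.05, at a log2 fold change of -1.60 (exact permutation p = 0.171). Ccl1, a ligand of CCR8 that T cells can make, had 2312.9, 4431, 3829.6 and 3582 in CCR8+ and 3187.5, 1708.2, 1827.2 and 3913.7 in CCR8- replicates 1 to 4 (exact permutation p = 0.229). It was therefore present in the same libraries as its receptor, without a difference beyond the spread.

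Some transcription factors of T helper subsets with characteristic receptors overlapped between the fractions. Gata3 (Th2) had 8761 ± 3936 normalized counts in CCR8+ and 8076 ± 2492 in CCR8- cells (SD, n = 4), which gave 0.08 ± 0.33 on the log2 scale (standard error, exact permutation p = 0.8), beside the overlapping Ccr4. Tbx21 (Th1) had 1494 ± 475 and 1330 ± 397 (log2 fold change 0.16, exact permutation p = 0.629), whereas Cxcr3 was lower. Bcl6 (follicular helper cells) was at or under 83.332 normalized counts in every library, as Cxcr5 was at or under 197.37. The direction of these 3 factors turned under at least 1 alternative setting.

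**Figure D5:**
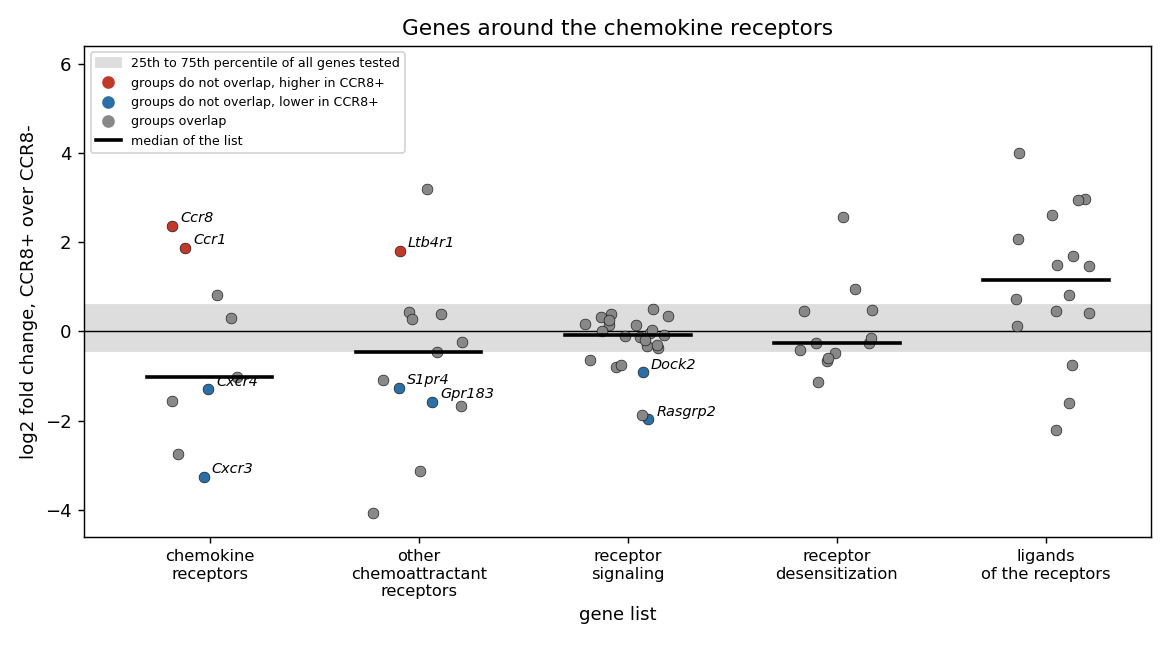
Log2 fold change, CCR8+ over CCR8-, of each tested gene of 5 lists, with genes whose groups do not overlap in red (higher) or blue (lower), the list median as a bar and the range from the 25th to the 75th percentile of all genes tested in gray. The receptor lists hold genes outside that range in both directions, while most signaling genes lie within it.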

How the data were processed

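Bulk RNA-Seq of 4 CCR8+ and 4 CCR8- Tconv samples was analyzed. Per the methods and the submitters' processing notes, reads were trimmed with Cutadapt and aligned to NCBIM37 with hisat2, and uniquely mapped reads were kept; tool versions and whether counting used strand are not given in the sources used here. The authors deposited a signal, which is the read count of a gene divided by 1 factor per library, and whole reads were recovered for 100% of values (tolerance 0.01). The number of unused sample columns was 0. Because these values are normalized, log2 values after adding 1 were tested with limma 3.58.1 (R 4.3.3, intensity trend) for genes whose mean reached 10, and p-values were adjusted by Benjamini-Hochberg; edgeR 4.0.16 and DESeq2 1.42.0 on recovered reads were alternatives, and the tests were checked on simulated data. A called gene had an adjusted p below 0.05 and a more than 3-fold difference. Other alternatives were scalings, pseudocounts, mean limits, the replicate block and leaving out libraries, of which leaving out CCR8- replicate 1 and CCR8+ replicate 3 together was chosen after seeing the data. Gene positions and exon lengths are from GENCODE M21 (GRCm38), a later build than that of the alignment. The genes named were every receptor, up to 6 genes of each other list (groups not overlapping, then highest mean), 3 subset factors and the 5 genes most like Ccr8. The members and lists were chosen with earlier results of these data known. Some genes are not reported here, and their lists are given without them.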

Additional observations from a re-analysis of the deposited data

Results flagged for a closer look

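In 3 of 34 groups of 4 libraries, 1 library had a gap to its nearest neighbor above Dixon's 95% limit, which chance gives in about 5% of groups. Penk and Mt1 were named for a profile like that of Ccr8, which is highest in CCR8+ replicate 3, so neither their count nor the shared library is set against that share. In CCR8+ replicate 3 Cxcr3 was at 0, against 2419.9 to 2825.6 normalized counts in the other CCR8+ libraries. Penk was at 61898, against 7636.9 to 14274, and Mt1, a metallothionein, was at 80704, against 7253.2 to 15209. Ccr8 itself was at 42508 in that library, against 6970.2 to 22965. Leaving that library out took the log2 fold change of Cxcr3 from -3.26 to -0.41.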

How the results depend on the processing

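Ccr1 and Cxcr4 kept their direction in all alternatives, with log2 fold changes of 1.13 to 2.15 and -1.45 to -1.16. The 4 receptors with groups not overlapping fell to 2 under quantile normalization (Ccr1 and Cxcr4). The count was 4 without each library in turn, but leaving out a library cannot make separated groups overlap. The share of all genes not overlapping was then 6.35% to 8.8%, and 12% without the CCR8- replicate 1 and CCR8+ replicate 3 libraries. Genes called numbered 2 without the intensity trend and 23 with DESeq2. With the replicate block limma called 1 gene and 0 receptors, and DESeq2 called 80 genes and 1 receptor, Ccr8 (adjusted p = 2.1e-28, compared with 0.0524 by limma and 0.121 by edgeR with the block); edgeR called 0 genes with the block. Same-numbered libraries correlated by 0.0682, 0.138, 0.108 and 0.217 in their deviations, not all above 0.1, and 7 of 8 correlated best with their own number, so the pairing is a hint from the data only. Ccr8 was ranked 2 in CCR8+ and 4 in CCR8- cells by coding length, and 1 to 2 and 2 to 3 without single libraries. Gata3 turned to -0.0139 under quantile normalization, -0.129 without CCR8- replicate 4, -0.196 without CCR8+ replicate 3 and -0.243 without both libraries above. Tbx21 turned to -0.0594 without CCR8- replicate 1. Bcl6 turned to 0.122, 0.226 and 0.933 without CCR8- replicate 2, CCR8- replicate 3 and CCR8+ replicate 1. Without single libraries Gata3 reached 0.282 at most and Tbx21 0.403, and Bcl6 -1.91 at least. The causes were not tested. Libraries without a read limit Ccr6 and Cxcr5.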

Other observations

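Marker lists of other cells that a sort could hold were summed per library. Melanoma markers came to 231.51 to 21777 normalized counts in CCR8+ and 105.4 to 17279 in CCR8- libraries. Dendritic cell markers came to 34.213 to 404.21 and 158.77 to 1054, neutrophil markers to 0 to 380.44 and 39.473 to 229.51, and B cell markers to 0 to 447.45 and 29.4 to 364.91. Their median log2 fold changes were -1.04, -1.03, 1.11 and -2.18. The NK cell genes Ncr1 and Klrb1c were at 0 in all CCR8+ libraries. Ncr1 was also at 0 in CCR8- replicates 1 and 2, and Klrb1c in CCR8- replicate 1. Klrd1 and Klrk1, of the same marker list, were present in every CCR8+ library, at 19.387 to 301.19 and 297.65 to 699.27 normalized counts.

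Of the 9 receptor genes, Cxcr6, Ccr1 and Ccr2 lie on chromosome 9 between 123806475 and 124113557, a stretch that also holds genes of the other chemoattractant receptors. The log2 fold changes of Cxcr6, Ccr1 and Ccr2, CCR8+ over CCR8-, were 0.30, 1.88 and -1.03.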
